A study of Mus musculus with 9 samples.

Results

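The 10 genes described here are the members of the BCL2 family that were chosen by symbol: Bcl2, Bcl2l1, Bcl2l2, Mcl1, Bak1, Bcl2l11, Bid, Bmf, Bik and Bad. All 10 were found once among the 53801 genes in the counts, and all 10 were among the 22452 genes that passed the filter on low counts and were tested. RNA-seq counts came from 9 libraries of a cultured mouse spermatogonial stem cell (SSC) line of genotype Prmt5 flox/flox; Rosa26-CreERT2, in which CreERT2 is expressed from a broadly active locus and 4-hydroxytamoxifen (4OHT) lets it cut the floxed gene. All 9 received 4OHT at 1 µM, so every group, the reference included, carried the treatment that deletes Prmt5. The 3 groups of 3 libraries were 4OHT with no construct (4OHT), 4OHT with the construct labelled MU, and 4OHT with the construct labelled OE. MU was read as catalytically dead PRMT5 (E444Q) and OE as PRMT5 (WT), both delivered by lentivirus. The labels give only the abbreviations, and every construct comparison rests on this reading. No group without 4OHT was analysed here, and no group was labelled as having an empty construct. In comparisons with 4OHT, delivery by lentivirus and the PRMT5 it carried therefore cannot be told apart. The sources do not say whether the 3 libraries of a group came from separate cultures, so p-values measure the spread between these libraries, which may be technical. The SSCs were grown on mouse embryonic fibroblast feeders.

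Proteins of the BCL2 family decide whether the outer mitochondrial membrane is opened and cytochrome c is released to activate caspases. Anti-apoptotic members (encoded by Bcl2, Bcl2l1, Bcl2l2 and Mcl1) hold pro-apoptotic partners in a surface groove, effectors such as BAK (Bak1) form the pore, and BH3-only proteins (encoded by Bcl2l11, Bid, Bmf, Bik and Bad) bind these through a short BH3 helix. In the testis this family sets how many germ cells survive, and loss of Bcl2l2 leaves male mice sterile.

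The BH3 helix is what the members share and what the other members' grooves hold, so its coding sequence is shown for each member in which it was found. The search looked, in the longest coding transcript of each gene (GENCODE vM21, GRCm38), for a leucine, any 3 residues, a glycine, alanine or serine, and an aspartate. The motif occurred once in 9 of the 10 members, in each case within a single exon, and had no match in Bcl2l2. The 27 bases below run 5′ to 3′ along the coding strand and cover 9 codons. Capitals mark the codon of the leucine and the pair of codons that ends in the aspartate.
Bcl2 at chr1:106712575-106712601, minus strand: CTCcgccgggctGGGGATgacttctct
Bcl2l1 at chr2:152829697-152829723, minus strand: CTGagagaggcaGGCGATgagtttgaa
Mcl1 at chr3:95659436-95659462, plus strand: CTGcggcgcgtgGGCGACggcgtgcag
Bak1 at chr17:27022531-27022557, minus strand: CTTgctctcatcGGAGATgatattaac
Bcl2l11 at chr2:128147150-128147176, plus strand: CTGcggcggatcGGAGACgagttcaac
Bid at chr6:120897289-120897315, minus strand: CTCgcccaaataGGCGATgagatggac
Bmf at chr2:118545100-118545126, minus strand: CTTcagtgtattGCAGACcagttccat
Bik at chr15:83543084-83543110, plus strand: CTGgcctgcatcGGCGATgagatggac
Bad at chr19:6950792-6950818, plus strand: CTCcgaaggatgAGCGATgagtttgag
A match describes the letters only.

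The libraries held between 78751996 and 365719548 counts, with the highest totals in the MU group. Values are given as CPM, in which each count is scaled by the total of its library and a TMM factor between 0.940 and 1.04. A value of 4 counts was more frequent than 3 or 5 in every library, so a read pair may stand for about 4 counts, and 3 such pairs (12 counts) correspond to between 0.0317 and 0.158 CPM. Prmt5, the targeted gene, stood above the 4OHT level in every library with a construct. It measured 30.3 ± 1.92 CPM (SD, n = 3) with 4OHT, 146 ± 0.957 CPM with MU and 1076 ± 7.61 CPM with OE, where reads from a construct and from the native gene were counted together. The deletion itself could not be checked without an undeleted group. Germ cell markers were present in all libraries, with a summed level of 2060 to 2136 CPM over 12 genes with 4OHT, 2941 to 3035 CPM with MU and 3173 to 3214 CPM with OE. These markers did not move together, and 7 of the 12 were called higher and 4 lower with either construct. Lin28a had the largest rise (log2 fold change 0.99 with MU and 1.06 with OE), and Id4 was not called. Etv5 and Gfra1, markers of undifferentiated spermatogonia, had the deepest falls. They fell by 3.18 and 2.13 on the log2 scale in MU against 4OHT and by 3.38 and 2.09 in OE against 4OHT. Other markers of undifferentiated spermatogonia were divided. Zbtb16 also fell (log2 fold change -0.67 with MU and -0.54 with OE), while Uchl1 rose (0.85 and 0.89). The groups also differed in markers of other cells. The summed level of 12 fibroblast markers was 10040 to 12150 CPM with 4OHT, 5622 to 5701 CPM with MU and 4394 to 4484 CPM with OE. That of 11 macrophage markers was 175 to 190 CPM, 1127 to 1162 CPM and 2222 to 2346 CPM. Sertoli cell markers summed to at most 22.7 CPM in any library. In bulk RNA, fewer cells of a type and less RNA per cell cannot be told apart, and the part of these other cells in the changes described here was not tested. MU and OE were both compared with the same 3 4OHT libraries, so these comparisons are not independent of each other.

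With either construct, 9 of the 10 members differed from 4OHT by edgeR's quasi-likelihood test (Benjamini-Hochberg adjustment across the whole table, threshold 0.05), with 7 lower and 2 higher. The 7 that fell were Bcl2, Bcl2l1, Bcl2l2, Mcl1, Bak1, Bcl2l11 and Bad, and the 2 that rose were Bik and Bmf. All 4 anti-apoptotic members and the effector fell, while the BH3-only members were divided between 2 that rose, 2 that fell and Bid, which did not pass the test. Most genes in the counts also differed. Of all genes tested, 56.0% were called in MU against 4OHT (29.5% higher, 26.5% lower) and 57.8% in OE against 4OHT (29.9% higher, 27.9% lower). In the same 9 members the 3 libraries of the construct group did not overlap the 3 of 4OHT, against 63.9% of all genes in MU against 4OHT and 61.6% in OE against 4OHT. The median log2 fold change of the 10 members was -0.47 in MU against 4OHT and -0.45 in OE against 4OHT, beside medians of 0.04 and 0.02 over all genes. Between MU and OE no member was called by edgeR, against a background of 3.17% of genes (2.12% higher, 1.06% lower in MU).

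**Figure D1:**
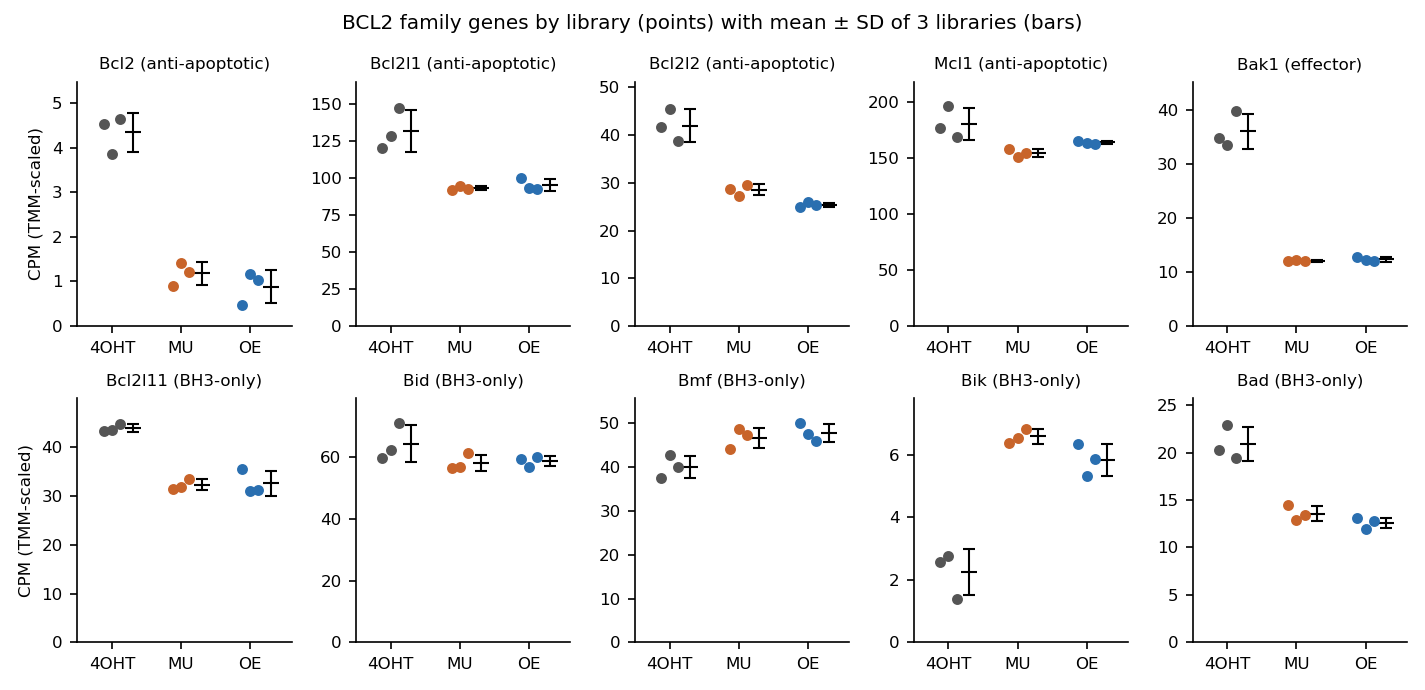
Level of each member in CPM (vertical axis, starting at 0) by group (horizontal axis), with 1 point per library and bars for the mean ± SD of 3 libraries. Bak1 sits between 33.5 and 39.7 CPM with 4OHT and between 11.9 and 12.8 CPM with either construct, while Bik sits higher with both constructs than with 4OHT and Bid overlaps in all groups.

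Bcl2, the founding anti-apoptotic member, had the largest decrease of the 10 genes (ENSMUSG00000057329, chr1:106538178-106714274, minus strand, GRCm38). It measured 4.53, 3.85 and 4.64 CPM in the 4OHT libraries, 0.896, 1.42 and 1.22 CPM with MU, and 0.468, 1.15 and 1.03 CPM with OE. All 6 libraries with a construct were below all 3 libraries with 4OHT alone, and the MU and OE libraries overlapped each other. The log2 fold change was -1.88 (SE 0.27, edgeR adjusted p = 4.57e-05) in MU against 4OHT, a 3.67-fold lower level, and -2.28 (SE 0.29, edgeR adjusted p = 9.70e-06) in OE against 4OHT, a 4.87-fold lower level. Bcl2 also had the fewest reads of the members in the construct libraries, while Bik had the fewest with 4OHT (194, 232 and 125 counts). The raw counts of Bcl2 were 344, 322 and 416 with 4OHT, 177, 538 and 290 with MU, and 38, 108 and 161 with OE, and its fold changes had the largest SE of the 10 members. An annotated antisense gene shares 6.09% of its exon bases and was listed at 0 counts in all 9 libraries.

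Bcl2l1, which encodes BCL-XL, was the second most abundant member for its length in every group (ENSMUSG00000007659, chr2:152780668-152831728, minus strand). Its level was 120, 128 and 147 CPM in the 4OHT libraries, 92.0, 94.9 and 92.6 CPM with MU, and 99.7, 93.0 and 92.7 CPM with OE. Both construct groups lay below 4OHT without overlap and overlapped each other. It fell by 0.50 on the log2 scale (SE 0.067, edgeR adjusted p = 1.81e-05) with MU and by 0.47 (SE 0.067, edgeR adjusted p = 3.13e-05) with OE. Bcl2l2 encodes BCL-W, whose loss leaves male mice sterile (ENSMUSG00000089682, chr14:54883377-54888234, plus strand). Its libraries measured 41.7, 45.6 and 38.7 CPM with 4OHT, 28.8, 27.3 and 29.6 CPM with MU, and 24.9, 25.9 and 25.3 CPM with OE. The 3 groups were ordered 4OHT, MU, OE with no overlap between any of them. The decrease against 4OHT was 0.56 on the log2 scale (SE 0.067, edgeR adjusted p = 6.95e-06) with MU and 0.73 (SE 0.068, edgeR adjusted p = 4.87e-07) with OE. A protein-coding gene on the same strand, Gm20521, shares 13.3% of the exon bases of Bcl2l2, and how reads were divided between these genes is not given in the sources used here.

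Mcl1, the short-lived anti-apoptotic member, changed least among those that fell (ENSMUSG00000038612, chr3:95658788-95663176, plus strand). The 4OHT libraries held 177, 196 and 169 CPM, the MU libraries 158, 151 and 155 CPM, and the OE libraries 165, 164 and 163 CPM. Each construct group was below 4OHT without overlap, with a gap of a few CPM between the highest OE library and the lowest 4OHT library. The log2 fold change was -0.22 (SE 0.055, edgeR adjusted p = 0.00317) with MU and -0.14 (SE 0.055, edgeR adjusted p = 0.0442) with OE. The second of these calls is not firm. It was made under 7 of 16 alternative analyses, and was lost without 4OHT replicate 2 (log2 fold change -0.07, edgeR adjusted p = 0.265), without MU replicate 1 (adjusted p = 0.0726) and without OE replicate 1, 2 or 3 (adjusted p = 0.127, 0.151 and 0.0790). Adding the replicate number as a block also lost this call.

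Bak1, the only pore-forming effector among the 10 (ENSMUSG00000057789, chr17:27019810-27029009, minus strand), had the smallest adjusted p of the members in both comparisons with 4OHT. It measured 34.8, 33.5 and 39.7 CPM in the 4OHT libraries, 11.98, 12.2 and 11.9 CPM with MU, and 12.8, 12.2 and 11.9 CPM with OE. The 6 construct libraries fell within a narrow range far below 4OHT, and MU and OE could not be separated. The level was 2.99-fold lower with MU (log2 fold change -1.58, SE 0.076, edgeR adjusted p = 7.08e-10) and 2.93-fold lower with OE (-1.55, SE 0.077, edgeR adjusted p = 7.85e-10). The gene Ggnbp1 lies on the opposite strand and shares 18.2% of the exon bases of Bak1. Whether the counting used strand is not given in the sources used here, so reads of such opposite-strand partners cannot be told apart.

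Among the BH3-only members, Bik had the largest change (ENSMUSG00000016758, chr15:83526862-83544634, plus strand). Its product resides mainly at the endoplasmic reticulum. The 4OHT libraries held 2.56, 2.77 and 1.39 CPM, the MU libraries 6.38, 6.54 and 6.83 CPM, and the OE libraries 6.34, 5.31 and 5.85 CPM. All construct libraries lay above all 4OHT libraries, and each OE library was below each MU library. The rise was 2.94-fold with MU (log2 fold change 1.56, SE 0.20, edgeR adjusted p = 1.20e-05) and 2.61-fold with OE (1.38, SE 0.20, edgeR adjusted p = 3.73e-05). Bmf, whose product is held on the cytoskeleton by dynein light chain (ENSMUSG00000040093, chr2:118528757-118549687, minus strand), rose less. It measured 37.4, 42.6 and 39.9 CPM with 4OHT, 44.2, 48.6 and 47.2 CPM with MU, and 50.03, 47.6 and 46.0 CPM with OE. The gap between 4OHT and either construct was small beside the spread within groups, although no library overlapped. The log2 fold change was 0.22 (SE 0.063, edgeR adjusted p = 0.00814) with MU and 0.26 (SE 0.064, edgeR adjusted p = 0.00316) with OE, and the MU call was lost without MU replicate 2 (0.18, edgeR adjusted p = 0.0624).

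Bcl2l11, which encodes BIM, a BH3-only protein that binds all the anti-apoptotic members (ENSMUSG00000027381, chr2:128126038-128162547, plus strand), moved the opposite way to Bik and Bmf. Its libraries held 43.3, 43.4 and 44.7 CPM with 4OHT, 31.4, 31.8 and 33.5 CPM with MU, and 35.6, 31.0 and 31.2 CPM with OE. Its 4OHT libraries spread least, for their level, of the 10 members and stood above all construct libraries. It fell by 0.44 on the log2 scale (SE 0.064, edgeR adjusted p = 3.87e-05) with MU and by 0.43 (SE 0.064, edgeR adjusted p = 5.31e-05) with OE. Bad, whose product is held inactive by 14-3-3 proteins when phosphorylated (ENSMUSG00000024959, chr19:6941861-6951899, plus strand), measured 20.3, 22.9 and 19.5 CPM with 4OHT, 14.4, 12.9 and 13.4 CPM with MU, and 13.1, 11.97 and 12.7 CPM with OE. Both construct groups were lower without overlap. The decrease was 0.62 on the log2 scale (SE 0.083, edgeR adjusted p = 1.98e-05) with MU and 0.73 (SE 0.084, edgeR adjusted p = 4.39e-06) with OE. Gpr137, on the opposite strand, shares 20.5% of the exon bases of Bad.

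Bid, which is cleaved by caspase-8 to link death receptors to mitochondria (ENSMUSG00000004446, chr6:120891930-120916853, minus strand), was the only member not called in either comparison with 4OHT. It measured 59.8, 62.3 and 71.3 CPM with 4OHT, 56.5, 56.9 and 61.4 CPM with MU, and 59.5, 56.9 and 60.2 CPM with OE. The groups overlapped, and 4OHT replicate 3 stood above the rest. The log2 fold change was -0.15 (SE 0.066, edgeR adjusted p = 0.0754) with MU and -0.13 (SE 0.066, edgeR adjusted p = 0.107) with OE. Without 4OHT replicate 1 it was called in both comparisons (log2 fold change -0.21 and -0.20, edgeR adjusted p = 0.0147 and 0.0204), and without MU replicate 3 in MU against 4OHT (-0.20, adjusted p = 0.0473). With the replicate number added as a block, Bid was also called in MU against 4OHT. Of its exon bases, 17.7% are shared with Bcl2l13 on the opposite strand.

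**Figure D2:**
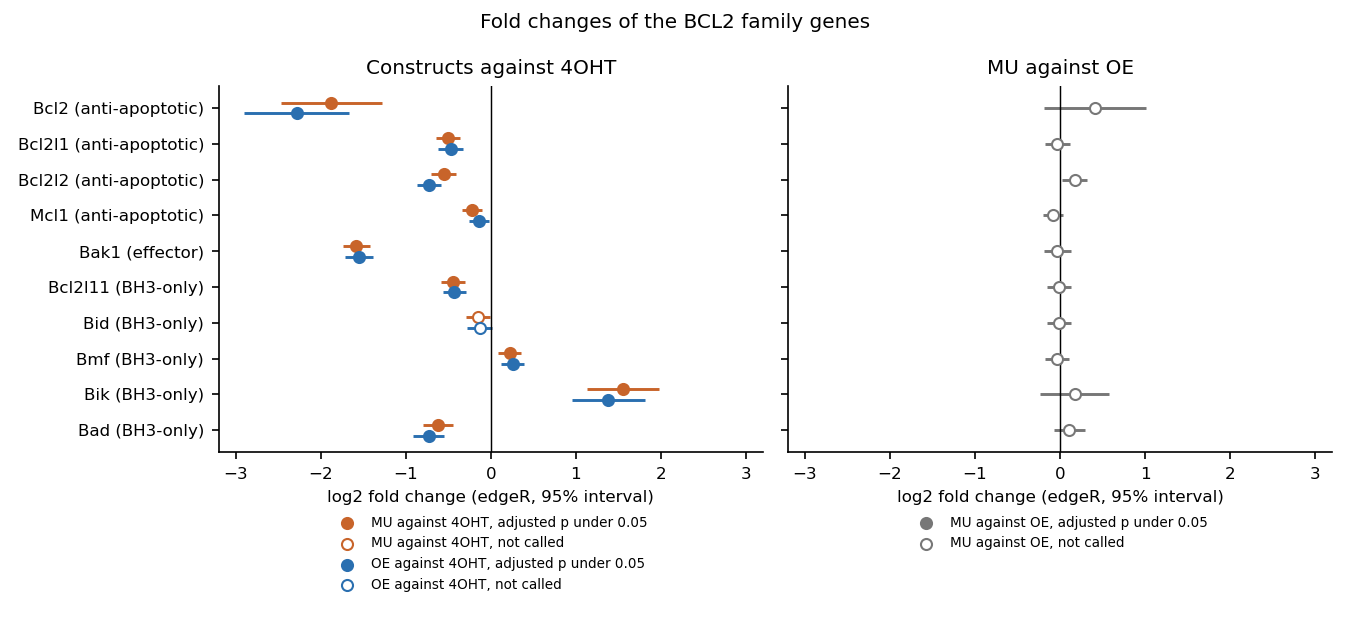
Log2 fold change of each member with its 95% interval from edgeR (horizontal axis), for both constructs against 4OHT on the left and for MU against OE on the right, with filled points where the adjusted p was under 0.05. Points for both constructs lie close together for every member, from Bcl2 at -1.88 and -2.28 to Bik at 1.56 and 1.38, and all points for MU against OE are open.

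The comparison of MU with OE asks whether the family stood at other levels with the form of PRMT5 read as catalytically dead than with the form read as wild type. These groups also differed in the level of Prmt5 RNA (146 CPM with MU, 1076 CPM with OE) and in macrophage and fibroblast markers. The form of PRMT5 cannot be told apart from its level or from these other cells. No member was called by edgeR or DESeq2. At an unadjusted p under 0.05, 1 member passed in edgeR and 1 in DESeq2. In edgeR this was Bcl2l2, higher in MU by 0.17 on the log2 scale (95% interval 0.03 to 0.32, edgeR adjusted p = 0.280). The MU and OE libraries did not overlap in 3 members, Bcl2l2, Mcl1 and Bik, against 25.9% of all genes. The intervals limit how large a difference these data could have missed. For Bcl2l1, Bak1, Bcl2l11, Bid and Bmf the log2 fold changes were -0.03, -0.03, -0.01, -0.01 and -0.04, and the widest of their 95% intervals was that of Bak1 (-0.19 to 0.13). Mcl1 had -0.08 (-0.20 to 0.03) and Bad 0.11 (-0.07 to 0.29). The widest intervals belonged to the members with the fewest counts, Bik at 0.17 (-0.23 to 0.58) and Bcl2 at 0.41 (-0.19 to 1.01), so a difference of up to about that size was not detectable in them. The median over the 10 members was -0.01, beside 0.01 over all genes.

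Levels were compared between members only per kilobase of exon. On this scale Mcl1 was highest in every group, at 52.8 ± 4.15 CPM per kb (SD, n = 3) with 4OHT, 45.2 ± 1.08 with MU and 48.0 ± 0.359 with OE. Bcl2l1 came next (28.8 ± 3.07, 20.3 ± 0.332 and 20.7 ± 0.873 CPM per kb) and Bid after it (18.2 ± 1.70, 16.4 ± 0.757 and 16.6 ± 0.491). Bcl2 was lowest in every group, at 0.474 CPM per kb with 4OHT, 0.129 with MU and 0.0964 with OE. The order between these ends differed with the constructs. Bak1 ranked 4 of 10 with 4OHT at 14.96 ± 1.37 CPM per kb, 7 with MU (5.00 ± 0.0607) and 6 with OE (5.11 ± 0.171), while Bmf ranked 7 with 4OHT (7.61 ± 0.497) and 4 with either construct (8.89 ± 0.432 with MU, 9.11 ± 0.39 with OE). Bcl2l2 ranked 5 in every group, at 9.41 ± 0.770, 6.40 ± 0.254 and 5.68 ± 0.115 CPM per kb. Neighbours whose libraries overlapped were Bcl2l2 and Bad, and Bad and Bmf, with 4OHT, and in both construct groups Bad and Bak1, and Bik and Bcl2l11. With the length of the longest transcript in place of all exon bases, the ranks of the first 3 members and of the last by mean were the same in every group and the middle order shifted. The lead of Mcl1 over Bcl2l1 with 4OHT was then no longer larger than the spread, at 52.8 CPM per kb (49.3 to 57.4) against 51.4 (46.7 to 57.4).

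**Figure D3:**
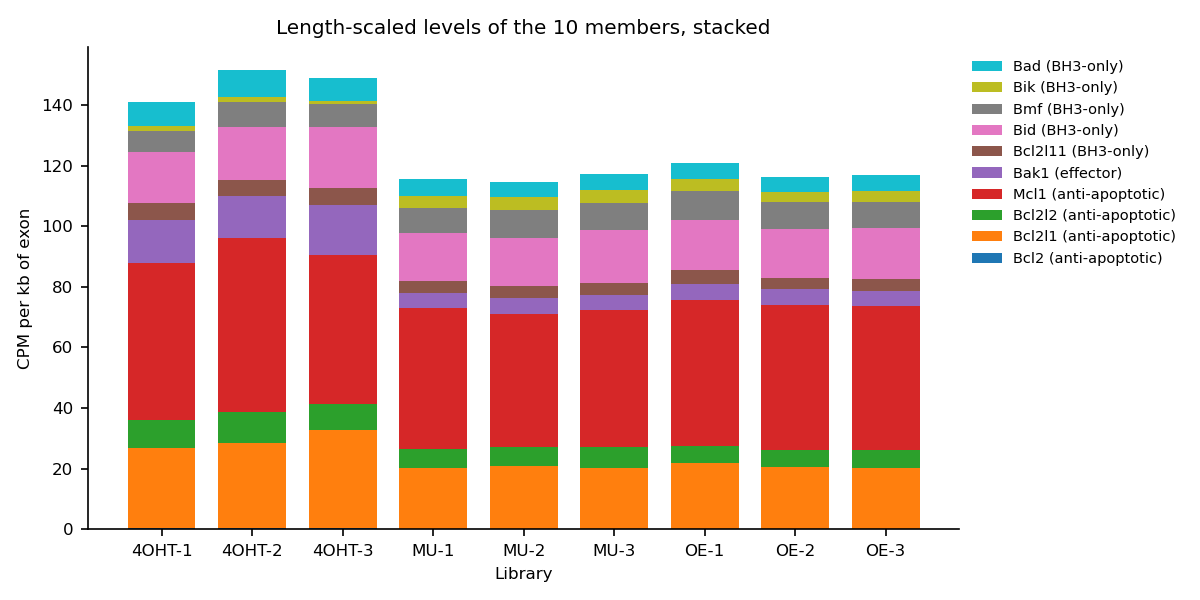
Level of the 10 members in CPM per kb of exon (vertical axis), stacked for each of the 9 libraries (horizontal axis) and coloured by gene. The 4OHT libraries reach 141 to 152 CPM per kb in all and the construct libraries 115 to 121, and the Bak1 segment is the one that shrinks most visibly.

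Summed by role on the length scale, the anti-apoptotic members reached 87.8 to 96.0 CPM per kb in the 4OHT libraries, 71.1 to 72.9 with MU and 73.6 to 75.7 with OE. The 5 BH3-only members summed to 38.9 to 41.8, 37.9 to 40.0 and 37.0 to 39.8 CPM per kb. The anti-apoptotic sum was thus lower in every construct library, while the BH3-only sums overlapped. The ratio of the BH3-only sum to the anti-apoptotic sum was 0.435 to 0.461 with 4OHT, 0.520 to 0.554 with MU and 0.499 to 0.525 with OE. With the longest transcript it was 0.528 to 0.543, 0.621 to 0.658 and 0.595 to 0.622. As a share of all 10 members, Bak1 took 9.16 to 11.1% with 4OHT, 4.23 to 4.43% with MU and 4.25 to 4.38% with OE. The anti-apoptotic share overlapped between all groups (60.9 to 63.3%, 61.6 to 63.0% and 62.7 to 63.8%), and the BH3-only share was 27.5 to 28.03%, 32.7 to 34.1% and 31.8 to 32.9%. These sums weight Mcl1, Bcl2l1 and Bid most, describe transcripts and not proteins, and carry no test. They cover the listed members only. Bbc3 and Pmaip1, BH3-only genes outside the list, fell with both constructs and are not in the ratio.

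The promoters of Bcl2 and Bak1, the members that fell most, are shown as RefSeq gives them on GRCm38.p6, from 250 bases before to 50 bases after the start, along the gene's strand. Capitals mark the GC box GGGCGG on either strand.
Bcl2 at chr1:106714241-106714540, minus strand: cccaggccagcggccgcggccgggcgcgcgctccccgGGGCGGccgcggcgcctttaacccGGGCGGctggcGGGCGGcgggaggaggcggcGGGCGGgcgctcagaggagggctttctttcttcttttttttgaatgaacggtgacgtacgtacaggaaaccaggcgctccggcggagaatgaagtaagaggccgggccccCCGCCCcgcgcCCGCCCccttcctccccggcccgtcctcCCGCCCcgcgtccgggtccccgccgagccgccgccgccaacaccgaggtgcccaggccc
Bak1 at chr17:27028578-27028877, minus strand: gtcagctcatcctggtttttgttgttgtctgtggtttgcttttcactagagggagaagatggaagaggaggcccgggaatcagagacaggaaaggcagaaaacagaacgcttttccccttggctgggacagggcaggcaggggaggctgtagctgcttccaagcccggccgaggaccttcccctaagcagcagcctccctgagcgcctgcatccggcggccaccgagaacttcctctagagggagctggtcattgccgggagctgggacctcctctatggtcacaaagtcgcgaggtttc
The window of Bcl2 held 7 GC boxes and 44 CpG sites at a GC content of 76%. That of Bak1 held no GC box and 11 CpG sites at 58.3% GC, so the windows of the members with the deepest falls differed in these features. The windows are not placed alike. That of Bak1 lies wholly inside the gene as GENCODE gives it, with its start at 27029009, while that of Bcl2 spans the GENCODE start at 106714274. The windows therefore may not compare like parts of these genes. Of 32851 promoters of the same length, 35.7% held a GC box, and their median GC content was 52.7%. Among the other members, windows of Bcl2l2, Mcl1, Bcl2l11, Bid, Bmf and Bad held a GC box. Those of Bcl2l1 held none, and Bmf and Bad also had windows without it. The 9 members with an entry had 15 windows between them. None of the 15 held the E-box CACGTG, which occurred in 7.15% of all promoters, or the TATA box TATAAA, which occurred in 13.6%. Bik had no entry. These are matches of letters, and no binding was measured.

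Genes whose pattern was most like that of the members with the largest rise and fall against 4OHT were found by Pearson correlation of log2 CPM over the 9 libraries, among 10616 genes of at least 10 CPM. For Bik these were Mrm3 (r = 0.994), Abhd10 (0.994), Atp5g1 (0.992), Nbeal1 (0.990) and Ebpl (0.989). For Bcl2 they were Tnfrsf22 (0.980), Procr (0.977), Hs6st2 (0.977), St6galnac4 (0.977) and Srr (0.976). The coefficients are a description, since the libraries share their groups, depth and composition.

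Outside the 10 members, Bax, Bbc3 and Pmaip1, family genes that p53 is known to induce, all fell with both constructs. Bbc3, which encodes the BH3-only protein PUMA, measured 15.7, 21.1 and 17.0 CPM with 4OHT, 8.19, 8.51 and 8.33 CPM with MU and 8.11, 8.06 and 8.38 CPM with OE. Its level dropped by 1.10 on the log2 scale with MU and by 1.13 with OE (SE 0.10 and 0.11, edgeR adjusted p = 6.17e-07 and 4.98e-07). Pmaip1, which encodes NOXA, went from a mean of 60.4 CPM to 43.2 and 44.1 CPM, and Bax, the second effector, from 121 CPM to 97.7 and 92.0 CPM. Bax and Bak1 thus both fell, Bak1 by the larger amount (log2 fold changes -1.58 and -1.55 for Bak1, -0.31 and -0.40 for Bax). The transcript of p53 itself, Trp53, fell by 0.57 on the log2 scale with MU and by 0.48 with OE. None of these 4 genes was called between MU and OE.

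Of 10 further family genes, 3 rose and 2 fell in MU against 4OHT, and 4 rose and 2 fell in OE against 4OHT. These shares, 50% and 60%, stand beside 56.0% and 57.8% of all genes tested. Bok and Bcl2l12 fell in both (Bok by 0.71 and 0.79 on the log2 scale, Bcl2l12 by 0.46 and 0.55), and Bcl2l13, which shares exon bases with Bid, rose slightly (0.22 and 0.35). Bcl2a1b, an anti-apoptotic gene of blood cells, rose from 0.281 CPM to 1.83 CPM with MU and 3.70 CPM with OE, and was lower in MU than in OE by 1.02 on the log2 scale (edgeR adjusted p = 0.0294). Its copies Bcl2a1a and Bcl2a1d are nearly identical, so the division of reads among them is uncertain, and the summed macrophage markers had the same order of groups.

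Downstream of the mitochondrion, the list of the apoptosome, caspases and their inhibitors was divided, with 4 of 14 higher and 6 lower in MU against 4OHT and 5 higher and 5 lower in OE against 4OHT (medians -0.04 and -0.01). In each comparison 71.4% of this list was called, beside 56.0% and 57.8% of all genes tested. Diablo, whose product blocks inhibitors of apoptosis, rose from 76.1 CPM to 141 and 145 CPM, and Birc5, which encodes survivin, rose by 0.73 and 0.58 on the log2 scale. Birc3, an inhibitor of apoptosis, fell by 0.70 and 0.72. No gene of this list was called between MU and OE. Death receptor genes that were called all fell against 4OHT. Of 9 tested, 7 fell and none rose in each comparison with 4OHT (medians -1.05 and -0.98). Of all genes tested, 26.5% were called lower in MU against 4OHT and 27.9% in OE against 4OHT. Cflar, which encodes the caspase-8 inhibitor FLIP, fell from 98.4 CPM to 33.0 and 30.8 CPM. Casp8 fell by 1.27 on the log2 scale in MU against 4OHT and was lower in MU than in OE by 0.35 (edgeR adjusted p = 0.00998), while Fas was higher in MU than in OE by 0.36 (edgeR adjusted p = 0.0239).

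Among 18 genes that bind or modify the members, 7 rose and 7 fell in MU against 4OHT, and 7 rose and 6 fell in OE against 4OHT. Bag3, a co-chaperone that stabilises anti-apoptotic members, fell by 1.16 and 1.31 on the log2 scale, and Ywhah, a 14-3-3 gene, by 0.96 and 0.88. Trim17, a ubiquitin ligase for MCL1, rose by 1.20 and 1.49, and Itpr1, a calcium channel that BCL2 binds, by 0.69 and 0.75. Of 14 transcription factors known to control members, 4 rose and 7 fell with MU, and 5 rose and 7 fell with OE. Beside these counts for both lists, 56.0% of all genes tested were called in MU against 4OHT and 57.8% in OE against 4OHT. Foxo1, an activator of Bcl2l11, rose from 178 CPM to 358 and 391 CPM. Myc fell from 33.7 CPM to 9.88 and 8.19 CPM, and Nfkb1, whose product takes part in the activation of Bcl2 and Bcl2l1, from 85.2 CPM to 41.3 and 38.3 CPM. Neither list had a gene called between MU and OE. Whether any of these genes acted on the members in these cells was not tested.

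**Figure D4:**
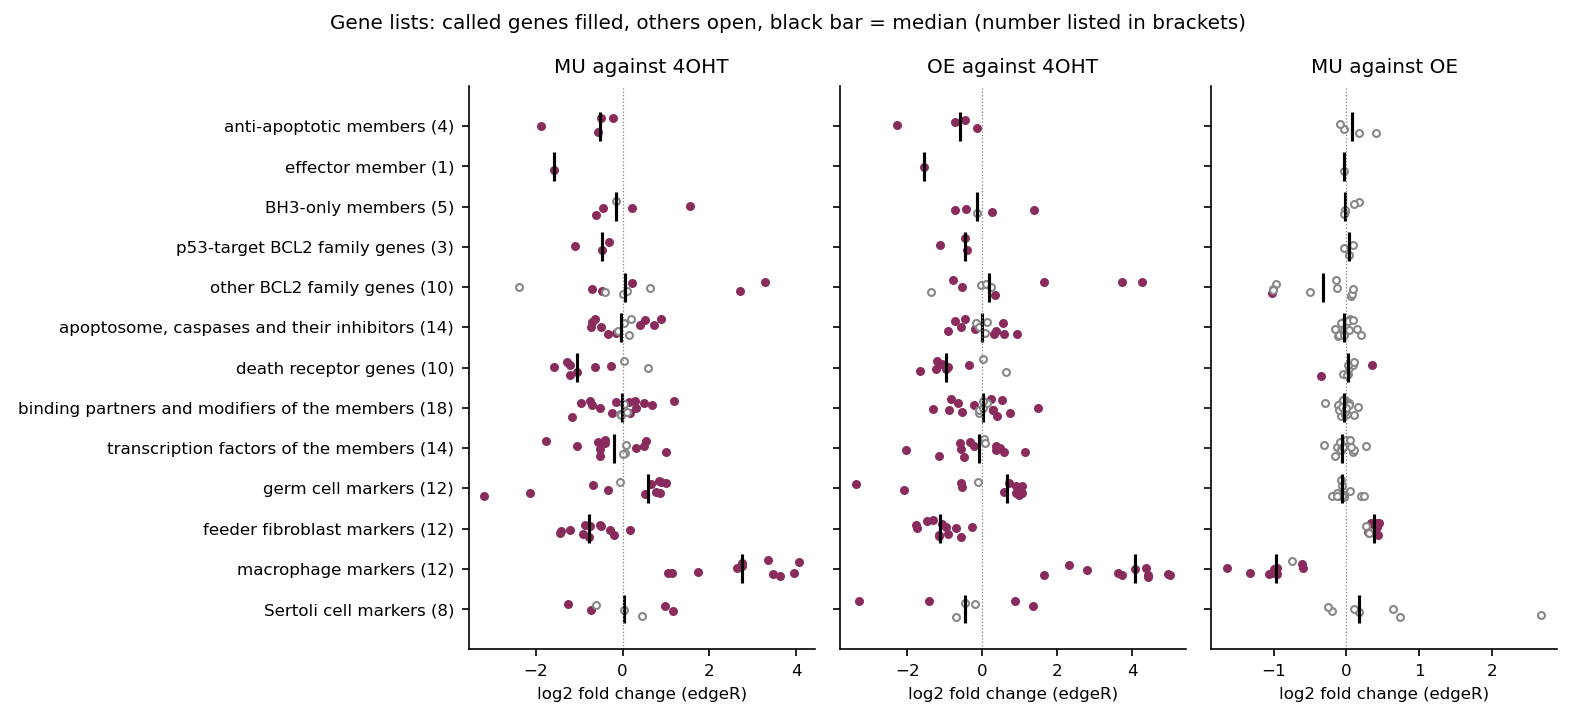
Log2 fold change (horizontal axis) of each tested gene of the lists named on the vertical axis, for the 3 comparisons, with called genes filled and a black bar at the list's median. The death receptor genes and fibroblast markers lie mostly below 0 and the macrophage markers above 0 against 4OHT, while the members' own lists are all open in MU against OE.

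The marker lists give the setting for these values. Of 12 fibroblast markers, 11 fell and 1 rose in MU against 4OHT and all 12 fell in OE against 4OHT, and 10 were higher in MU than in OE. All 11 macrophage markers tested rose with both constructs (medians 2.76 and 4.08), and 10 were lower in MU than in OE (median -0.96). Ptprc, which encodes CD45, went from 0.696 CPM to 11.6 CPM with MU and 22.4 CPM with OE. Of 7 Sertoli cell markers tested, 2 rose and 2 fell with either construct. Germ cell markers were called higher in 7 of 12 and lower in 4 of 12 with either construct, and in none between MU and OE. Of all genes tested, 56.0% were called in MU against 4OHT, 57.8% in OE against 4OHT and 3.17% in MU against OE.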

How the data were processed

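RNA-seq was analysed in 9 mouse SSC libraries, grouped by the sample labels into 4OHT, MU and OE (3 each). The values the authors deposited are raw counts for each gene, in whole numbers. By the study's methods and the submitters' processing notes, reads were trimmed with BBmap and Trimmomatic 0.39, aligned to GRCm38 with HISAT2 2.2.1 and quantified with StringTie 2.2.1. Strand handling, treatment of multiply aligned reads and the step to whole numbers are not given in the sources used here. The total counts per library ranged from 78751996 to 365719548, and limits of 12 counts cover counting error only.

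Counts were tested in R 4.3.3 with edgeR 4.0.16 (filterByExpr by group with minimum count 10 and minimum total 15, TMM, quasi-likelihood test with group as the only term on all 9 libraries, common biological coefficient of variation 0.155). Adjustment (Benjamini-Hochberg, threshold 0.05) ran over 22452 genes. Alternatives were upper-quartile scaling, DESeq2 1.42.0, no filter, only the 6 libraries compared, a replicate block, counts divided by 4, TMM factors without markers of other cells, and each library left out. On simulated counts for 22452 genes, edgeR recovered 92 of 100 genes changed 2-fold and 77 of 100 changed 1.5-fold in MU against 4OHT, 92 and 70 in OE against 4OHT, and 91 and 72 in MU against OE. Unchanged genes that it called numbered 14, 19 and 13.

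The members and gene lists were chosen with earlier results of these data known. All members, Prmt5, Trp53, Bax, Bbc3 and Pmaip1 were named. From each other list up to 2 higher and 2 lower genes with the largest change per comparison could be named, with adjusted p under 0.05 and at least 1 CPM. A gene that this rule would name is not reported here. Bcl2a1a and Bcl2a1d were named as copies of Bcl2a1b after their values were seen. Levels per kb used the union of GENCODE vM21 exons.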

Additional observations from a re-analysis of the deposited data

How the results depend on the processing

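Over 16 alternatives, no member changed direction against 4OHT, and Bcl2, Bcl2l1, Bcl2l2, Bak1, Bcl2l11, Bik and Bad were called in all 16 in both comparisons. Mcl1 was called in 16 in MU against 4OHT and in 7 in OE against 4OHT, where its log2 fold change ranged from -0.20 to -0.06 and its adjusted p from 0.00228 to 0.382 (edgeR and DESeq2). Bmf was called in 15 in MU against 4OHT and 16 in OE against 4OHT. Bid was called in 4 and 2. Members called with 1 library left out numbered 1 to 2 higher in MU against 4OHT, with 1 without MU replicate 2, where Bmf was lost. Upper-quartile scaling moved the median of all genes to 0.12 in MU against 4OHT and 0.10 in OE against 4OHT.

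Between MU and OE no member was called under any alternative, and near-zero differences changed sign. Without the filter these were Bcl2l1 (0.0101), Bak1 (0.0094), Bcl2l11 (0.0257), Bid (0.0237) and Bmf (0.0049). Under that setting the median of all genes in MU against OE also moved, from 0.008 to 0.047. Without MU replicate 1 the members that changed sign were Bcl2l11 (0.0037), Bid (0.0070) and Bmf (0.0030). Bid also did so without MU replicate 2 (0.0032) and OE replicate 3 (0.0038), and Bcl2l1 (0.0055) and Bcl2l11 (0.0526) without OE replicate 1. With 1 library left out, the differences ranged from -0.0466 to 0.0055 for Bcl2l1, from -0.0487 to 0.0526 for Bcl2l11, from -0.0519 to 0.0070 for Bid and from -0.0644 to 0.0030 for Bmf. All genes called in MU against OE numbered 712 (475 higher, 237 lower) and rose to 1112 (729 and 383) with DESeq2 and to 1565 (822 and 743) with only the 6 libraries compared. With 1 library left out they ranged from 400 to 1099 (higher 256 to 686, lower 144 to 413). The cause was not tested.

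Same-numbered libraries of different groups did not deviate together throughout (r from -0.03 to 0.15 over 9 pairs, over 0.1 in 4), although 7 of 9 libraries correlated best with their own number. These values do not settle whether the numbers mark pairs. No label ties the numbers to a shared culture or day, and the main test did not treat them as pairs. With the replicate block, 10 members were called in MU against 4OHT (Bid added, edgeR adjusted p = 0.0442), 8 in OE against 4OHT (Mcl1 lost, edgeR adjusted p = 0.0548) and 0 in MU against OE, and 12443, 12807 and 674 genes in all.

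Depth limits Bcl2 and Bik most, since their few counts gave the widest intervals.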
